A study of Arabidopsis thaliana with 12 samples.

Results

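FLC, its 5 relatives MAF1 to MAF5, and SVP are MADS-box transcription factors that hold back flowering in Arabidopsis thaliana. The 7 genes were taken by gene identifier (FLC AT5G10140, MAF1 AT1G77080, MAF2 AT5G65050, MAF3 AT5G65060, MAF4 AT5G65070, MAF5 AT5G65080 and SVP AT2G22540) from a table of 32548 genes, and all 7 passed the filter on low values, with 22315 genes tested in all. FLC, MAF1 (also called FLM), MAF2, MAF3, MAF4 and MAF5 form one clade of related proteins, and SVP belongs to a separate clade. FLC and SVP bind regulatory DNA of FT, which encodes the mobile flowering signal, and of SOC1, a MADS-box promoter of flowering, and keep both low. FLC itself is switched on by FRIGIDA and by active chromatin marks, lowered by the autonomous pathway, and silenced by Polycomb proteins during vernalization, the response to winter cold. FLM and SVP act together in the response to ambient temperature.

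RNA was measured in 12 samples of seedlings aged 20 days, 3 per genotype: gte4-/-, eml1-/-eml2-/-, gte4-/-eml1-/-eml2-/- (the triple mutant) and wild type. Plants spent 12 days on plates and then grew in soil, with 16 h of light and 8 h of dark at 22 °C. GTE4 is a bromodomain reader of histone acetylation, and EML1 and EML2 are EMSY-like proteins that, by the series title, join it in a complex that also reads trimethylated H3K4. At issue is how RNA levels differ with loss of either side of the complex or of both. The labels give neither the accession of the wild type nor the nature of the alleles, and they do not say whether samples are separate plants or pools, so p-values measure the spread between these samples.

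The deposited values are normalized counts, with sample totals of 31990484 to 34322625. GTE4 lay between 61.02 and 99.2 in the samples that carry gte4 and between 1618 and 2202 in the others, and EML2 between 28.8 and 117 in the samples that carry eml2 and between 521 and 612 in the others. EML2 RNA was lower in the triple mutant, at 30.75 ± 1.74, than in eml1 eml2, at 108 ± 11.7 (SD, n = 3 each; log2 -1.77, limma adjusted p = 3.27e-07), and its interaction was called (-1.77, adjusted p = 1.59e-05). The eml1 eml2 genotypes thus did not have the same EML2 level with and without gte4, which applies to each comparison of the triple mutant with eml1 eml2 and to each interaction. EML1 stood at 942 ± 55.3 in eml1 eml2, 1004 ± 35.7 in the triple mutant and 928 ± 69.6 in wild type (SD, n = 3 each), so its gene-level value gave no check of the eml1 mutation. Leaf markers were abundant in every library, with a summed level of 1321925 to 1638896 for 4 genes. The summed level of 4 root markers was 31.4 to 51.7 in gte4, 76.5 to 105.5 in eml1 eml2, 30.3 to 45.9 in the triple mutant and 108 to 124 in wild type, and nearly all of it was COW1, which averaged 36.4, 90.9, 35.8 and 109.5 in the same genotypes. The other root markers stood near the floor, with COBL9 at most 6.46, PRP3 at most 4.402 and EXP7 at most 0.933. The summed level of 5 floral organ identity genes was 488 to 516 in gte4, 597 to 836 in eml1 eml2, 540.5 to 708 in the triple mutant and 268 to 407 in wild type, with no marker at 0 in all samples. The sum of 2 anther markers was 180.4 to 294 in gte4, 332 to 553 in eml1 eml2, 73.2 to 146 in the triple mutant and 0.454 to 28.6 in wild type. In bulk RNA, fewer cells of a type and less RNA per cell cannot be told apart.

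The repressors divided into 4 well expressed genes and 3 expressed at far lower levels. Divided by the bases covered by any annotated exon, SVP stood at 1727 ± 118 normalized counts per kilobase in gte4, 1399 ± 71.6 in eml1 eml2, 1483 ± 54.8 in the triple mutant and 1709 ± 68.1 in wild type (SD, n = 3). MAF1, MAF2 and MAF3 followed, with mean levels per kilobase of 192, 176 and 177 in gte4, 188, 218.5 and 204 in eml1 eml2, 186, 214 and 201 in triple mutants, and 227, 195 and 207 in wild type. In wild type, MAF2 and MAF3 differed by less than their SDs of 15.9 and 33.7, and MAF1, at an SD of 6.58, differed from MAF3 by less than the SD of MAF3.

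Near the floor, the wild type levels per kilobase of MAF5, MAF4 and FLC were 10.2 ± 5.20, 9.92 ± 6.06 and 9.64 ± 5.54, which differed by less than their spread. The order among MAF1, MAF2 and MAF3 depended on which length was used. MAF1 has 11 annotated transcripts of 722 to 4099 bases, and per kilobase of the median transcript the wild type levels were 929.6 for MAF1, 633 for MAF2 and 262 for MAF3, still below SVP at 1995. FLC then stood at 11.4, MAF5 at 15.8 and MAF4 at 16.3.

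**Figure D1:**
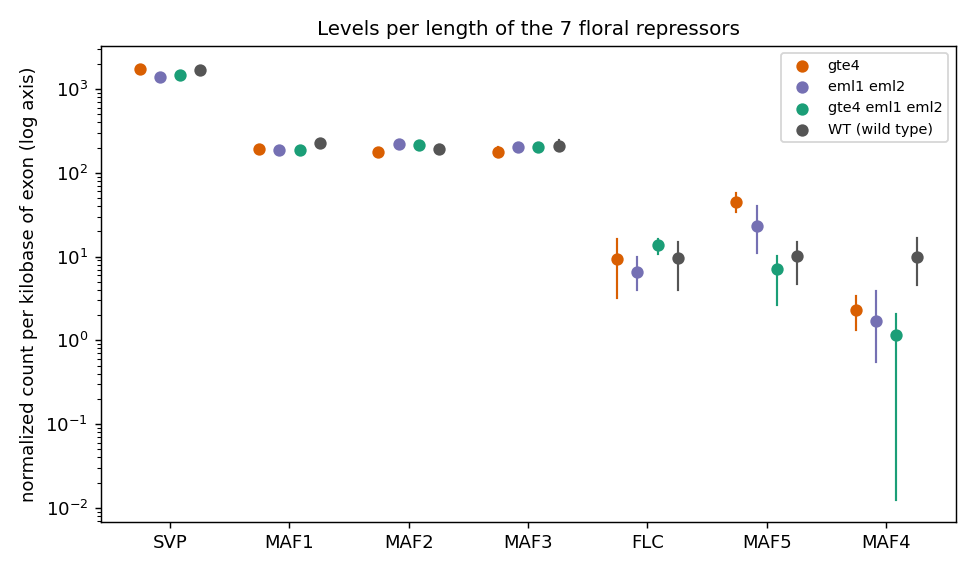
Level of each gene as normalized count per kilobase of exon (vertical log axis) in gte4, eml1 eml2, the triple mutant and wild type; points are means and lines run from the lowest to the highest of 3 samples. SVP lies highest in all 4 genotypes, MAF1 to MAF3 lie between 176 and 227, and FLC, MAF5 and MAF4 lie lowest.

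Position and sequence identity bear on how reads can be assigned to these genes. MAF2, MAF3, MAF4 and MAF5 lie in a row on chromosome 5 on the same strand, with 873, 780 and 1301 bases between them in the RefSeq annotation of TAIR10.1. Of all stretches of 50 bases in their exons, 2.46% of those of MAF3 and none of those of MAF2, MAF4 and MAF5 occurred elsewhere in that genome; for MAF1 the share was 0.28%, and for FLC and SVP it was 0. FLC is overlapped by the antisense noncoding RNA gene AT5G01675 over 68.1% of its exon bases. That gene was at the floor of the table in all 12 samples, and the strand of the libraries and the handling of shared reads are not given in the sources used here. No other member overlapped another gene.

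MAF1, SVP and MAF4 were lower and MAF5 was higher in at least one mutant, while FLC, MAF2 and MAF3 did not pass the test in any comparison with wild type. In gte4, 2 of the 7 genes were called at an adjusted p under 0.05, MAF1 lower and MAF5 higher, against 25.9% of all genes tested (12.1% higher and 13.8% lower). In eml1 eml2, MAF1, MAF4 and SVP were called, all lower, or 3 of 7 against 23.6% of all genes (11.6% higher and 12.0% lower). The same 3 genes were called lower in the triple mutant, where 33.6% of all genes were called (15.4% higher and 18.2% lower). With 7 genes, these counts do not set the repressors apart from the rest of the table. The median log2 change of the 7 was -0.14 for gte4, -0.27 for eml1 eml2 and -0.20 for the triple mutant, and that of all genes was between 0 and 0.01. Across the 4 genotypes together, limma's F test called 5 of the 7, MAF1, MAF2, MAF4, MAF5 and SVP, against 38.6% of all genes. The 3 comparisons with wild type share its 3 samples.

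**Figure D2:**
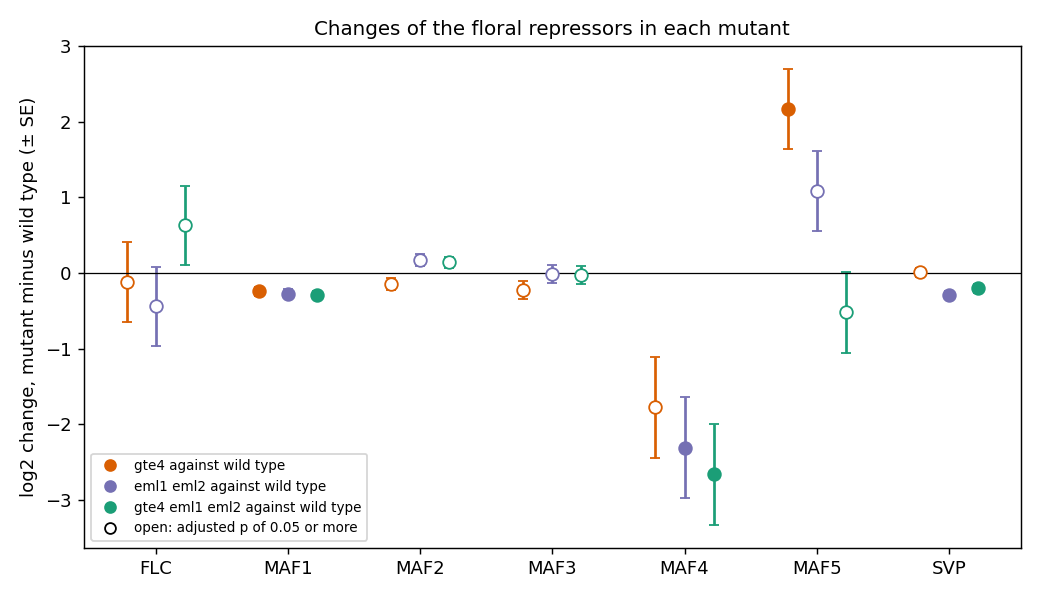
Log2 change (± SE) of each gene in each mutant against wild type, fitted by limma; filled points have an adjusted p under 0.05. MAF1 lies at -0.24 to -0.29 in all 3 mutants, MAF4 lies at -1.77 to -2.66, and MAF5 lies at 2.17 in gte4 but -0.52 in the triple mutant.

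MAF5, a repressor of flowering and the last gene of the row on chromosome 5, had the largest rise. Its normalized counts were 42.2, 54.7 and 69.97 in gte4, against 18.4, 5.70 and 13.4 in wild type. The groups did not overlap, and MAF5 was 4.5-fold higher in gte4 (log2 change 2.17, SE 0.53, limma adjusted p = 0.00857, and 0.00289 to 0.0357 over 23 alternatives). In eml1 eml2 the values were 22.7, 49.8 and 13.7, so 1 sample stood near the gte4 samples and 1 lay within the wild type range (log2 change 1.08, adjusted p = 0.164). The triple mutant had 12.4, 10.2 and 3.24, within or below the wild type range, with a log2 change against wild type of -0.52 (adjusted p = 0.491, 95% interval -1.66 to 0.62).

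MAF5 in the triple mutant was thus below the gte4 single mutant, with no overlap of samples. That difference was -2.69 on the log2 scale (SE 0.53, limma adjusted p = 0.0106), in a comparison that called 3 of the 7 repressors and 9.55% of all genes. The call was lost without gte4 replicate 2 (adjusted p = 0.0593) and without the mean-variance trend and robust moderation (0.0522), over a range of 0.00437 to 0.0593. Adding the changes of gte4 and eml1 eml2 would put the triple mutant at a log2 change of 3.25, and the observed change lay 3.77 below that sum (interaction -3.77, SE 0.75, limma adjusted p = 0.0184). The interaction called 1 of the 7 repressors and 2.94% of all genes. Its call was lost without gte4 replicate 2 (adjusted p = 0.0503) and without the trend and robust moderation (0.0682), over a range of 0.00914 to 0.0682. The triple mutant and eml1 eml2 did not overlap for MAF5 either, but the log2 difference of -1.60 missed the threshold (adjusted p = 0.173). In that comparison limma called 0 of the 7 repressors and 1.66% of all genes. At an unadjusted p under 0.05 the count would have been 1 repressor, MAF5 (0.00962), and 2925 of all 22315 genes tested.

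Tissue markers differed between the same libraries. Both anther markers, GRP19 and TSM1, were called higher in each mutant, the triple mutant included, and for both the interaction was called too (-7.18 and -5.62 on the log2 scale). Of the 5 floral organ genes, gte4 had 3 called higher, eml1 eml2 had 5 and the triple mutant had 3. These list counts stand against 12.1%, 11.6% and 15.4% of all genes called higher. COW1 was the 1 root marker called, lower in gte4 (log2 -1.59) and in the triple mutant (-1.60). EML2 RNA, whose interaction was called as well, also differed between eml1 eml2 and the triple mutant. The part of these tissues, and of the EML2 level, in the MAF5 values was not tested.

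MAF4, the neighbour of MAF5 and also a repressor of flowering, had lower values in all mutants, and was called in both genotypes with eml1 eml2. It stood at 2.21, 3.45 and 5.56 normalized counts in gte4, 1.13, 0.909 and 6.41 in eml1 eml2, 3.35, 2.28 and 0.0204 in triple mutant samples, and 27.2, 7.61 and 14.2 in wild type. All 9 mutant samples lay below the 3 wild type samples. Against wild type the log2 change was -2.31 in eml1 eml2 (SE 0.667, limma adjusted p = 0.0188) and -2.66 in the triple mutant (adjusted p = 0.00546). In gte4 it was -1.77 and missed the threshold (adjusted p = 0.0618). It passed under 6 of 22 alternatives: a pseudocount of 5 (0.0193), only the genotypes compared (0.0274), the replicate number as a block (0.0497), and without WT replicate 2 (0.0465), eml1 eml2 replicate 3 (0.0432) or triple mutant replicate 3 (0.0406), over a range of 0.0193 to 0.23.

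The call for MAF4 in eml1 eml2 was lost without WT replicate 1 (adjusted p = 0.0809), WT replicate 3 (0.0505), eml1 eml2 replicate 1 (0.0713) or eml1 eml2 replicate 2 (0.08), over a range of 0.00698 to 0.0809. At values this low the size of the MAF4 change depends on the pseudocount: with 5 in place of 1 it was -1.20 for gte4, -1.41 for eml1 eml2 and -1.56 for the triple mutant, and with 0.5 it was -1.89, -2.57 and -3.07. The root marker COW1 was called lower in gte4 and the triple mutant, and was not called in eml1 eml2 (log2 -0.27, limma adjusted p = 0.376). The other root markers stood near the floor, and none was called. The part of root tissue in the MAF4 values was not tested. The interaction of MAF4 was not called (log2 1.42, adjusted p = 0.498). No difference of MAF4 between mutants was called by limma either. The log2 difference was 0.55 for gte4 against eml1 eml2 (adjusted p = 0.64, 95% interval -0.86 to 1.96). It was -0.90 for the triple mutant against gte4 (0.439) and -0.35 for the triple mutant against eml1 eml2 (0.903).

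As a description of the pair, the log2 ratio of MAF5 to MAF4 was 3.75, 3.65 and 3.43 in gte4, 3.48, 4.73 and 0.99 in eml1 eml2, 1.62, 1.78 and 2.05 in triple mutant samples, and -0.54, -0.36 and -0.07 in wild type. By counts not divided by length, MAF5 was the higher of the 2 in all 9 mutant samples and MAF4 the higher in all 3 wild type samples. The wild type order depended on length. Per kilobase of exon the wild type means were 10.2 ± 5.20 for MAF5 and 9.92 ± 6.06 for MAF4 (SD, n = 3 each). BST1, the gene beyond MAF5, stood at 27.5 ± 3.07 in gte4, 30.07 ± 9.49 in eml1 eml2, 27.3 ± 11.9 in the triple mutant and 17.5 ± 9.72 in wild type (SD, n = 3 each), and was not called against wild type in any mutant (adjusted p = 0.133 to 0.227).

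**Figure D3:**
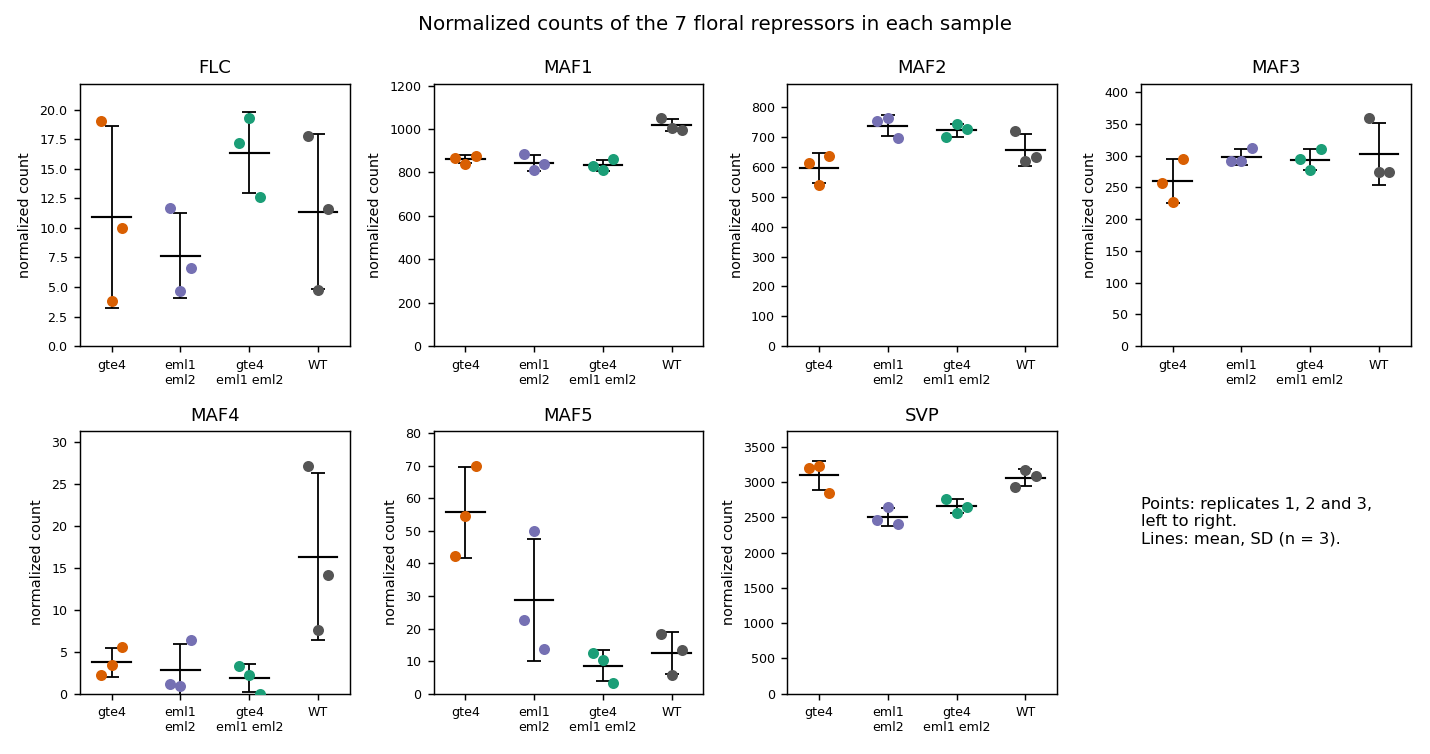
Normalized counts of the 7 genes in each of the 12 samples, in gte4, eml1 eml2, the triple mutant and wild type; points are samples, and lines give the mean and SD. MAF4 is lower in all 9 mutant samples than in wild type, MAF5 is highest in gte4, and MAF1 is lower in all mutant samples.

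MAF1 (FLM), which represses flowering together with SVP, was lower in each mutant by a similar, small amount. Its normalized counts were 868, 839 and 877 in gte4, 884, 810.5 and 836 in eml1 eml2, 830.1, 809.5 and 860.1 in triple mutant samples, and 1051, 1006 and 996 in wild type. Each of the 9 mutant samples lay below each wild type sample. The log2 change was -0.24 in gte4 (SE 0.0592, limma adjusted p = 0.00681), -0.27 in eml1 eml2 (adjusted p = 0.00349) and -0.29 in the triple mutant (adjusted p = 0.0013).

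The mutants did not differ from each other for MAF1 by a called amount, and the 95% intervals of those log2 differences were -0.17 to 0.08 for the triple mutant against gte4, -0.14 to 0.11 for the triple mutant against eml1 eml2, and -0.09 to 0.16 for gte4 against eml1 eml2. The interaction was 0.22 (adjusted p = 0.18). With the trend of the samples on exon length removed, the call of MAF1 in gte4 was lost (adjusted p = 0.0625; 0.00399 to 0.0625 over 23 alternatives), while the triple mutant was then below gte4 (log2 -0.27, adjusted p = 0.0253) and gte4 above eml1 eml2 (0.27, adjusted p = 0.0158). That trend used the bases covered by any annotated exon, 4480 for MAF1 and 3384 for MAF2, whose median transcripts have 1095 and 1040 bases. A trend on transcript length was not tested. The deposited values are sums over a gene, so the splice forms of MAF1 were not resolved.

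SVP, the partner of FLC and FLM, was lower in the genotypes that carry eml1 eml2. Its values were 3195, 3233 and 2850 in gte4, 2469, 2649 and 2401 in eml1 eml2, 2756, 2560 and 2653 in triple mutant samples, and 2926, 3164 and 3090 in wild type. All samples of eml1 eml2 and of the triple mutant lay below all samples of gte4 and of wild type. The log2 change was -0.29 in eml1 eml2 (SE 0.0592, limma adjusted p = 0.00226) and -0.20 in the triple mutant (adjusted p = 0.0136). In gte4 it was 0.01 (adjusted p = 0.902, 95% interval -0.11 to 0.14).

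Directly compared, SVP was higher in gte4 than in eml1 eml2 (log2 0.30, adjusted p = 0.00514), in a comparison that called 2 of the 7 repressors, SVP and MAF2, and 13.5% of all genes. The triple mutant was lower than gte4 (log2 -0.22, adjusted p = 0.0311), a call lost under 7 of 23 alternatives, without gte4 replicates 1 or 2 and without triple mutant replicates 2 or 3 among them (0.00672 to 0.149). In the comparison of the triple mutant with wild type, SVP missed the threshold without WT replicate 2 (0.0595) or triple mutant replicate 2 (0.0586; 0.00642 to 0.0595 over 23 alternatives).

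MAF2, which delays flowering after short spells of cold, and its neighbour MAF3, also a repressor, were not called against wild type in any mutant. MAF2 stood at 614, 539.8 and 636.5 in gte4, 754.5, 765 and 698 in eml1 eml2, 701, 744 and 726 in triple mutant samples, and 720.1, 621 and 635 in wild type. Its samples overlapped between each mutant and wild type, with log2 changes of -0.14 in gte4 (adjusted p = 0.204), 0.17 in eml1 eml2 (0.136, and 0.046 without WT replicate 1) and 0.14 in the triple mutant (0.194). Between mutants MAF2 was lower in gte4 than in eml1 eml2 (log2 -0.31, adjusted p = 0.0173) and higher in the triple mutant than in gte4 (0.28, adjusted p = 0.0348). The first of these calls was lost without gte4 replicate 2 (adjusted p = 0.102) or eml1 eml2 replicates 1 or 2 (0.062 and 0.0683), with the length trend removed (0.199), and with no trend and no robust moderation (0.0506), over a range of 0.00861 to 0.199. The second was lost without any 1 of gte4 replicates 1 and 2 and the 3 triple mutant samples (0.0555 to 0.179), with the length trend removed (0.297), and with no trend and no robust moderation (0.082).

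MAF3 stood at 257, 227 and 295 in gte4, 291, 291 and 313 in eml1 eml2, 295, 277 and 309.6 in triple mutant samples, and 359, 274 and 274 in wild type. Its log2 changes were -0.22 in gte4 (adjusted p = 0.202), -0.01 in eml1 eml2 (0.973) and -0.03 in triple mutants (0.868), and no comparison called it. MAF2 and MAF3 deviated from their genotype means in a similar way, with a correlation of 0.72 across the 12 samples after those means were removed. This was not particular to these neighbours: the value was 0.67 for FLC with MAF2, 0.62 for MAF1 with MAF3 and -0.67 for MAF3 with SVP. These correlations are a description, since both values of a point come from 1 library.

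FLC was low in all samples and showed no called change. It stood at 19.1, 3.77 and 10.03 in gte4, 11.7, 4.68 and 6.63 in eml1 eml2, 17.2, 19.3 and 12.6 in triple mutant samples, and 17.8, 4.74 and 11.6 in wild type. The triple mutant samples lay close together and above all eml1 eml2 samples (log2 difference 1.07, adjusted p = 0.413), within the ranges of gte4 and wild type but for replicate 2. The log2 changes were -0.12 in gte4 (95% interval -1.23 to 0.99), -0.44 in eml1 eml2 (-1.55 to 0.67) and 0.63 in the triple mutant (-0.48 to 1.74). With this spread between samples, changes of about 2-fold could not be told from none. In each genotype but the triple mutant, the sample numbered 1 had the highest FLC and the sample numbered 2 the lowest. The next gene on chromosome 5, AT5G10150, stood at 474 ± 43.4 in gte4, 529 ± 8.72 in eml1 eml2, 570.4 ± 40.7 in the triple mutant and 437 ± 54.5 in wild type (SD, n = 3 each). It was called higher in eml1 eml2 (log2 0.28, limma adjusted p = 0.0387) and in the triple mutant (0.39, adjusted p = 0.00422).

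Some other neighbours of the repressors were called. AT1G77090, whose 3′ end lies 77 bases from that of MAF1, fell in all 3 mutants, by 0.16 on the log2 scale in gte4 (adjusted p = 0.04), 0.28 in eml1 eml2 (0.00138) and 0.36 in triple mutants (8.96e-05), whereas AT1G77060 on the other side of MAF1 was not called (adjusted p = 0.403 to 0.825). Beside SVP, AT2G22530 fell in all 3 mutants by 0.28 to 0.42 on the log2 scale, and NET2D fell in gte4 (log2 -0.80, adjusted p = 0.00315), where the log2 change of SVP was 0.01. AT5G09295, a noncoding RNA gene before MAF2, was not called (adjusted p = 0.455 to 0.999). Over the 12 samples, the genes most like each repressor by Pearson's r of the log2 values, among genes with a mean of at least 20, were AT3G52220 and AT3G49142 for FLC (0.876 and 0.851), AT4G31080 and DEG5 for MAF1 (0.961 and 0.959), MAP70-2 and DML2 for MAF2 (0.974 and 0.970), AT1G15740 and AT3G54790 for MAF3 (0.939 and 0.909), AT1G67650 and AT2G42780 for MAF4 (0.934 and 0.925), NIMIN1 and AT5G46620 for MAF5 (0.916 and 0.881), and AT1G54500 and AT5G51010 for SVP (0.974 and 0.965). These describe likeness over samples that share a genotype and carry no test.

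Among regulators of FLC, the FRIGIDA complex had no called gene and the other lists had between 1 and 10 in each mutant. By limma, 0 of the 7 genes of the FRIGIDA complex were called in any comparison with wild type, against 25.9%, 23.6% and 33.6% of all genes. At an unadjusted p under 0.05 there were 0 in gte4, 2 in eml1 eml2 (SUF4 and FRL2) and 2 in the triple mutant (SUF4 and FRI). In the same order, 8192, 7902 and 9623 of all 22315 genes tested had an unadjusted p under 0.05. FRI stood at 213 ± 2.33 in gte4, 215.5 ± 13.7 in eml1 eml2, 197 ± 7.18 in the triple mutant and 231 ± 18.0 in wild type (SD, n = 3 each). Of 22 genes of active chromatin at FLC, 3 were called lower and 0 higher in gte4, 4 lower and 4 higher in eml1 eml2, and 5 lower and 5 higher in the triple mutant. These are 13.6%, 36.4% and 45.5% of the list, against 25.9%, 23.6% and 33.6% of all genes called. SWC6, a subunit of the SWR1 complex that deposits the histone variant H2A.Z, was lower in all 3 mutants, at 99.3 ± 12.4, 87.3 ± 24.5 and 90.0 ± 15.7 in gte4, eml1 eml2 and the triple mutant, against 145 ± 17.3 in wild type (SD, n = 3 each; adjusted p = 0.0467, 0.00897 and 0.0105). SWC4 of the same complex was also lower in gte4 (log2 -0.29, adjusted p = 0.003), eml1 eml2 (-0.22, 0.0183) and triple mutants (-0.27, 0.00364). SWC2 was lower in gte4 (-0.57, 0.00239) and triple mutants (-0.37, 0.0234), and stood at -0.10 in eml1 eml2 (0.578). The ATPase PIE1 was higher in the triple mutant (log2 0.42, adjusted p = 0.0282), and stood at -0.22 in gte4 (0.25) and 0.36 in eml1 eml2 (0.0656). The ubiquitin-conjugating enzyme UBC1 was lower in eml1 eml2 (log2 -0.33, adjusted p = 0.00708) and triple mutants (-0.30, 0.00775), and stood at -0.19 in gte4 (0.0957). The H2B ubiquitin ligase HUB2 was higher in eml1 eml2 (0.26, 0.0477), and stood at -0.22 in gte4 (0.092) and 0.13 in triple mutants (0.28).

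Of 7 genes of the autonomous pathway, which lowers FLC, LD was lower in gte4 (log2 -0.25, adjusted p = 0.0317), FPA was higher in eml1 eml2 (0.23, adjusted p = 0.0399), and FCA, FPA and FLK were higher in the triple mutant (0.36, 0.33 and 0.20, with adjusted p = 0.000687, 0.0034 and 0.0279). These called genes were 14.3%, 14.3% and 42.9% of the list in gte4, eml1 eml2 and triple mutants, against 25.9%, 23.6% and 33.6% of all genes. FCA, an RNA-binding protein, stood at 803 ± 23.5 in the triple mutant and 627 ± 20.0 in wild type. Of 12 tested genes of vernalization and Polycomb silencing, 1 was higher and 3 lower in gte4, 1 higher in eml1 eml2, and 1 higher and 1 lower in the triple mutant. These are 33.3%, 8.33% and 16.7% of the list, against 25.9%, 23.6% and 33.6% of all genes. VAL1, a DNA-binding protein that recruits silencing to FLC, was higher in all 3 mutants (log2 0.29, 0.24 and 0.40 in gte4, eml1 eml2 and the triple mutant; adjusted p = 0.0124, 0.0353 and 0.00106). LHP1, a Polycomb-associated protein, fell by 0.33 in gte4 (adjusted p = 0.00398) and 0.25 in the triple mutant (adjusted p = 0.0172), and the Polycomb subunit VRN2 fell by 0.25 in gte4 (adjusted p = 0.0196). VIN3, which is induced by long cold, was not tested: it did not exceed 3.19 in any sample.

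Several genes that the repressors hold down, and flowering genes below them, were higher in the mutants. Of 11 tested, 4 were called higher and 0 lower in gte4, 6 higher and 0 lower in eml1 eml2, and 5 higher and 1 lower in the triple mutant. All genes had 12.1%, 11.6% and 15.4% called higher and 25.9%, 23.6% and 33.6% called. Their median log2 change was 0.43, 0.43 and 0.33, against a median of all genes between 0 and 0.01. The list includes SEP3, AP1 and LFY, which flower meristems express, and markers of floral organs were higher in the same libraries; the part of flower tissue in these counts was not tested. FT stood at 39.8, 51.7 and 26.2 in gte4, 20.7, 38.1 and 34.99 in eml1 eml2, 43.6, 44.6 and 40.9 in triple mutant samples, and 27.3, 7.61 and 13.2 in wild type. Its samples overlapped wild type in gte4 (log2 1.36, adjusted p = 0.0144) and in eml1 eml2 (1.05, adjusted p = 0.0543) and lay above it in the triple mutant (1.54, adjusted p = 0.00478). SOC1 was higher in each mutant, by 0.17 for gte4, 0.27 for eml1 eml2 and 0.16 for the triple mutant (adjusted p = 0.0241, 0.00151 and 0.0267), at 2078 ± 27.6, 2225 ± 106 and 2061 ± 13.5, against 1850 ± 83.7 in wild type (SD, n = 3 each). On the log2 scale SEP3, a cofactor of floral organ identity, rose by 1.24 for gte4, 1.63 for eml1 eml2 and 1.34 for the triple mutant. AP1, which specifies floral meristems, rose by 0.49, 0.98 and 0.63 in the same order. GA20OX2, an enzyme of gibberellin synthesis repressed by SVP, rose by 1.09 in eml1 eml2 (adjusted p = 0.02) and 0.90 in the triple mutant (adjusted p = 0.0392). AGL42, a MADS-box relative of SOC1, fell by 0.54 in the triple mutant (adjusted p = 0.0391) and was the 1 gene of the list called lower.

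**Figure D4:**
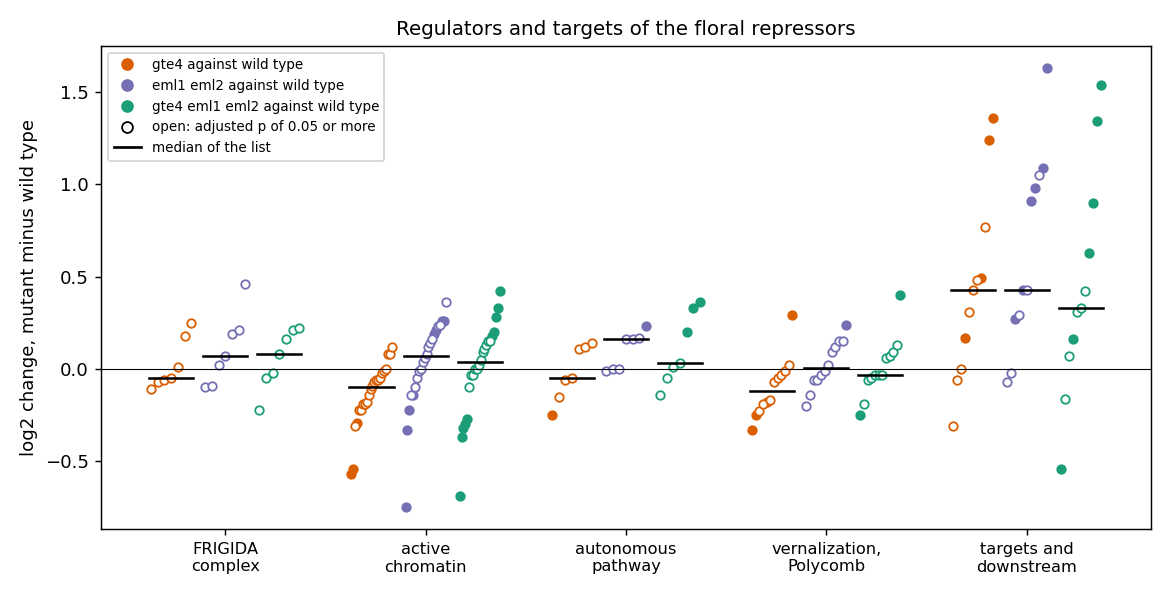
Log2 change of each tested regulator and target against wild type in gte4, eml1 eml2 and the triple mutant; filled points have a limma adjusted p under 0.05 and bars are list medians. The targets and genes below them have medians of 0.33 to 0.43, and the 4 lists of regulators have medians between -0.12 and 0.16.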

How the data were processed

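The authors deposited 1 table of normalized counts (a read-count signal per gene that is not whole), 1 column per sample. The submitters' processing notes name bcl2fastq, HISAT2, edgeR and TAIR10 without versions. The counting program, annotation and strand are not given in the sources used here. Nearly equal totals mean that the reads behind a value are unknown, so counting intervals could not be given.

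Values were log2 transformed after adding 1. Genes with a mean of at least 1 were fitted by limma 3.58.1 in R 4.3.3, with 1 coefficient per genotype over all 12 samples, a mean-variance trend and robust moderation. The call threshold was an adjusted p of 0.05 (Benjamini-Hochberg) over 22315 genes. With 3 samples against 3 no exact permutation p goes below 0.1, so none was computed. The code was tested on simulated data. Alternatives were a pseudocount of 0.5 or 5, no filter, a minimum mean of 20, equal totals, median-of-ratios or quantile scaling, removal of each sample's trend on exon length, no trend and no robust moderation, only the genotypes compared, a replicate block, and leaving out each of the 12 samples. Columns outside this series: 0.

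The repressors, the gene lists and the tests were chosen with earlier results of these data known. Named genes are the 7 repressors, their neighbours, the most alike genes, FT and SOC1, and up to 3 called genes per list and mutant. AT5G01675, EXP7, VIN3, FRI, SUF4, FRL2, ARP6, LFY, COW1, COBL9, PRP3 and AGL42 were named after their values were seen. Lengths, neighbours and overlaps come from the RefSeq annotation of TAIR10.1, where 32548 of 32548 identifiers were found; no coordinates are given because the deposited values name TAIR10.

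Replicate numbers were taken to pair genotypes where all 3 same-number correlations of deviations from the genotype means exceeded 0.1, over genes with a mean of at least 50. This held for 4 of 6 pairs of genotypes, not for the triple mutant with gte4 or with wild type, and for 1 of 6 pairs over all tested genes. Over genes with a mean of at least 50, only the samples numbered 2 fell short for the triple mutant (r = -0.0745 with gte4 and -0.124 with wild type). For 10 of 12 libraries the best match in other genotypes had the same number.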

Additional observations from a re-analysis of the deposited data

Results flagged for a closer look

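MAF5 drew attention because its difference between plants with and without eml1 eml2 was not the same in gte4 as in plants with intact GTE4. The interaction was -3.77 on the log2 scale (limma adjusted p = 0.0184). In plants with gte4, the triple mutant against gte4 had a log2 difference of -2.69, from samples of 12.4, 10.2 and 3.24 in the triple mutant and 42.2, 54.7 and 69.97 in gte4. In plants with intact GTE4, eml1 eml2 against wild type had 1.08, from samples of 22.7, 49.8 and 13.7 in eml1 eml2 and 18.4, 5.70 and 13.4 in wild type. The interaction kept this direction in every alternative run, with values of -4.18 to -3.07. Its call was lost without gte4 replicate 2 (limma adjusted p = 0.0503) and with no trend and no robust moderation (0.0682). The loss of EML2 RNA was not equal in these 2 contrasts: EML2 stood at 30.75 ± 1.74 in the triple mutant and 108 ± 11.7 in eml1 eml2 (SD, n = 3 each; limma adjusted p = 3.27e-07), and the part of this in the MAF5 interaction was not tested.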

How the results depend on the processing

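No call of a repressor changed direction under any alternative. Of 49 results (7 genes in 7 comparisons), 37 stayed on the same side of the threshold throughout. In gte4 against wild type 2 repressors were called, 1 with the length trend removed, and 3 under 6 alternatives, those under which MAF4 passed. In the triple mutant against gte4 3 were called, against 0 with no trend and no robust moderation; in gte4 against eml1 eml2 2 were called and 1 under that setting, and in the interaction 1 and 0. Leaving out each sample gave 0 to 3 called in the triple mutant against gte4, 1 to 2 in gte4 against eml1 eml2 and 0 to 1 in the interaction. With a minimum mean of 20, FLC and MAF4 were not tested. The cause was not tested.

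The fit with a replicate block called 3, 3 and 3 repressors in gte4, eml1 eml2 and the triple mutant against wild type, where the unblocked fit called 2, 3 and 3. Counts of all genes called in the same comparisons were 6963, 6587 and 8764 with the block, against 5780, 5271 and 7495 in the unblocked fit. The block changed no call of a repressor other than that of MAF4 in gte4. Over all genes the blocked fit also called 3358 against 2131 in the triple mutant against gte4, 682 against 370 in the triple mutant against eml1 eml2, and 1269 against 655 in the interaction. In those 3 comparisons and in gte4 against eml1 eml2, with 3019, counts over all genes without each sample ran from 271 to 3023, 131 to 449, 261 to 701 and 877 to 3723. Among the other alternatives the lowest were 393, 199, 245 and 1491, all with no trend and no robust moderation. With the length trend removed, the triple mutant against gte4 had 562 and gte4 against eml1 eml2 had 1530. The lowest of these counts without 1 sample, 271 and 877, came without gte4 replicate 2, and 131 and 261 came without eml1 eml2 replicate 2. FLC and MAF4 stood near the floor, and small changes in them could not be detected.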
